A study of Mus musculus with 89 samples.

Results

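Intermediate progenitor cells of the adult mouse dentate gyrus were compared with activated neural stem cells that carried no Pdgfra transcripts, 11 cells against 11 cells out of the 89 single cells of the series. The members were chosen by measured values: the class of each cell (IPC, aNSC or qNSC, read here as intermediate progenitor cell, activated and quiescent neural stem cell) comes from the authors' deposited annotation, and aNSC cells were kept when they had fewer than 10 counts of Pdgfra, a receptor gene of oligodendrocyte precursors. All 11 aNSC cells kept had 0 counts of Pdgfra, whereas the other 7 aNSC cells, just outside the limit, had 531 to 3057. The 11 IPC cells also had 0. The IPC group held 5 cells taken at an age of 2 months and 6 taken at 4.5 months, and the Pdgfra-negative aNSC group held 7 and 4. The remaining 60 cells were qNSC, which are used only as context.

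All cells, in every group, came from homozygous Nestin:CFPnuc mice on a C57BL/6 background, in which regulatory sequence of the Nestin gene drives a nuclear cyan fluorescent protein. The reporter marks stem cells and their early progeny, not all cells of the dentate gyrus. Viable single cells were collected by flow cytometry at 4 °C, amplified with a full-length template-switching kit (SMART-Seq v4) and sequenced separately. The labels name no animal, so each group counts as 1 sample: no test was run, no p-value is given, and SDs and ranges describe cells.

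In the adult dentate gyrus, quiescent radial stem cells with astroglial features become activated, divide, and give rise to intermediate progenitors, which express the T-box factor Eomes (Tbr2), amplify by a few divisions and produce neuroblasts that mature into granule neurons. The step from activated stem cell to intermediate progenitor is known for the loss of astroglial genes and the gain of proneural transcription factors. Pdgfra was read from the same values that are compared below. How the authors assigned the classes is not given in the sources used here, so expression may also have set them, and the differences are given as a description.

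The class labels were set against marker genes. All 11 IPC cells had 10 or more counts for 5 to 10 of the 10 intermediate progenitor markers, against 1 to 5 in the aNSC cells. Of these 10, Eomes, Ccnd2, Hmgb2, Ezh2 and Mfap4 are the 5 markers given with the comparison. The counts are therefore a description and no independent check of the labels. Quiescent stem cell markers, also 10 genes, reached 2 to 7 in IPC cells and 5 to 9 in aNSC cells. Eomes itself passed 10 counts in 7 of 11 IPC cells (63.6%, exact Clopper-Pearson 95% interval 30.8 to 89.1) and in 0 of 11 aNSC cells (upper bound 28.5%). Microglial markers were at 0 in both groups. Of 10 oligodendrocyte precursor markers, 0 to 2 passed 10 counts in a cell of either group. Their summed level ran from 0 over 0 to 1675 CPM in IPC cells and from 0 over 75.5 to 212 CPM in aNSC cells, with 7 and 6 of the 10 at 0 throughout, Pdgfra and Sox10 among them. Of 9 astrocyte markers, which quiescent stem cells largely share (55 of 60 qNSC cells had at least 50% of them), IPC cells had 0 to 4 and aNSC cells 2 to 9. Their summed level ran from 0 over 302 to 968 CPM in IPC cells and from 126 over 7730 to 33182 CPM in aNSC cells, and 3 of the 9 (S100b, Gjb6 and Aldh1l1) were at 0 in every IPC cell. At least 50% of the astrocyte markers were found in 0 IPC cells and 5 aNSC cells, and cells 3 and 5 of 2 months had all 9. Single cells stood apart in other ways. IPC cell 1 of 2 months had 8 of 9 neuroblast markers. Among the aNSC cells, cell 7 of 2 months had 5 of the 10 progenitor markers, cell 2 of 2 months had 6 of 8 endothelial and 7 of 8 mural markers, and cell 2 of 4.5 months had 3 of 6 ependymal markers. Cell numbers follow accession order within class and age and carry no other meaning.

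Total counts per cell ran from 312947 to 1394939 in IPC cells and from 252278 to 1896075 in aNSC cells. The median IPC cell had reads of 4647 genes and the median aNSC cell of 4145. With every cell thinned to 252277 counts, the medians were 4242 and 3995 genes. The 5 cells under 500000 counts were 1 IPC and 4 aNSC cells, all of 2 months. Values below are counts per 1000000 (CPM) or log2(CPM + 1), and a difference is always the IPC mean minus the aNSC mean on the log2(CPM + 1) scale, which understates the size for genes with few counts.

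Of 24411 genes, 7313 were read in 35% or more of the IPC cells or of the aNSC cells and are called measured. A size rule asked of a measured gene a difference of at least 2, a ratio of at least 4 in the CPM of summed counts, detection in a share of cells that differed by 25 percentage points or more, all in the same direction, and the same sign of the difference within each age. It was met by 554 genes higher in IPC cells (7.58% of those measured) and by 512 genes lower (7%). These shares are the background against which the counts of each gene group below are to be read. The rule passes over genes that nearly every cell of both groups expresses, whatever the size of the difference, because the share of cells then cannot move. A gene nearly silent in aNSC cells is measured only through the IPC cells, and the reverse, so counts among measured members describe the groups and are no support for a difference. The median difference over all measured genes was 0.29, with 0.44 at 2 months and 0.14 at 4.5 months, so the typical gene lay slightly above 0. Nearly all genes overlapped between groups: only 2 measured genes (0.0273%) were higher in every IPC cell than in every aNSC cell, Hnrnpa1 and Stmn1, and only 2 (0.0273%) were lower in every IPC cell, Clu and Atraid. Atraid was named after its value was seen. Without the 2 aNSC cells with markers of another cell type the size rule gave 633 higher and 452 lower genes, without aNSC cell 7 of 2 months 620 and 513, without IPC cell 1 of 2 months 531 and 512, and without the 5 cells under 500000 counts 608 and 505.

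**Figure D1:**
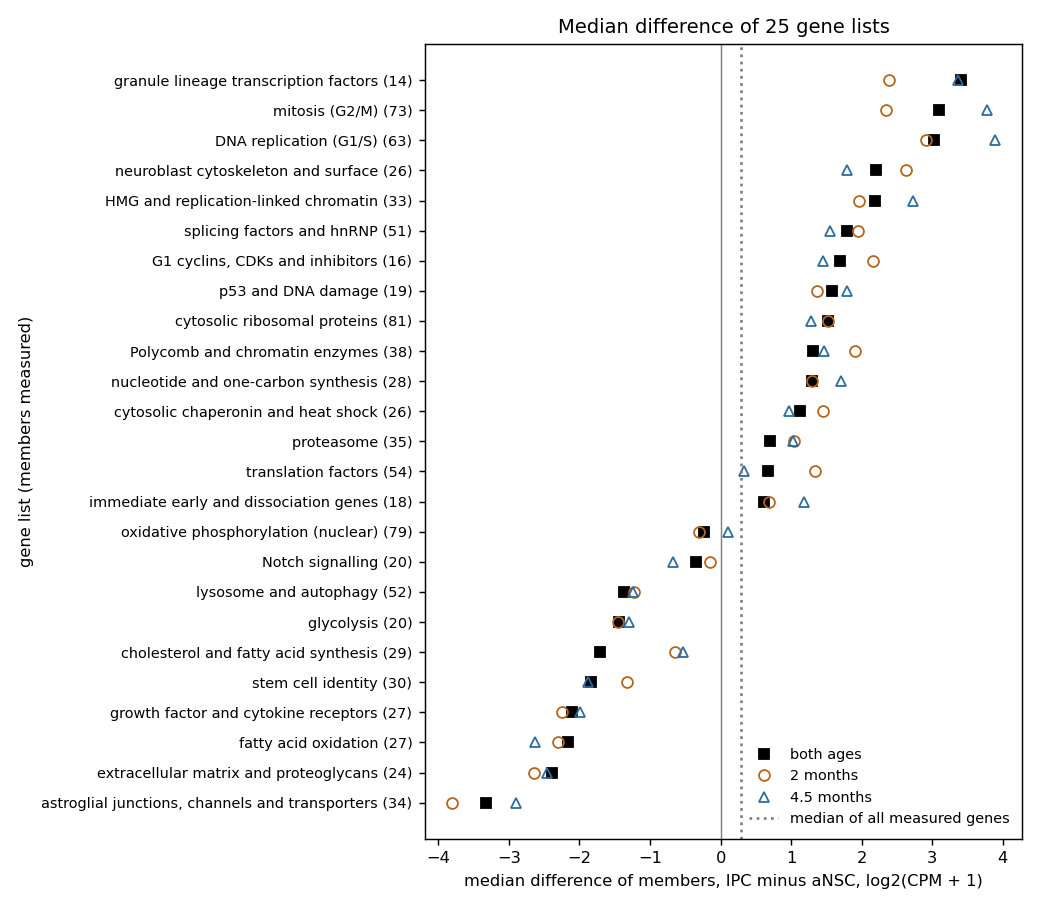
Median difference (IPC minus Pdgfra-negative aNSC, log2(CPM + 1)) of the measured members of 25 gene lists, for both ages together (squares), 2 months (circles) and 4.5 months (triangles), with the number of measured members in parentheses. The dotted line is the median of all measured genes, 0.29. Transcription factors of the granule lineage and cell cycle lists lie at the top, and astroglial, matrix and fatty acid oxidation lists at the bottom, with the same sign at each age.

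Some transcription factors that drive the granule neuron lineage met the size rule, all of them higher in IPC cells. Of 24 listed genes, 14 were measured, 6 met the size rule and all 6 were higher; the median difference was 3.41, with 2.39 at 2 months and 3.36 at 4.5 months, against 0.29 over all measured genes. It was 1.47 over all listed genes, with no filter on the share of cells, and 2.23 with a pseudocount of 10. Neurog2, a proneural basic helix-loop-helix factor, ranged from 0 over a median of 95.3 to 2451 CPM in IPC cells and from 0 over 0 to 113 CPM in aNSC cells. It was read in 8 IPC and 3 aNSC cells, and 10 or more counts were found in 8 and 1. Eomes, the T-box factor that defines this progenitor stage, ranged from 0 over 113 to 438 CPM in IPC cells and from 0 over 0 to 7.62 CPM in aNSC cells. The 4 IPC cells without it were cells 1, 2 and 5 of 2 months and cell 5 of 4.5 months, so the groups overlapped at 0. Insm1, a zinc-finger factor of newly committed neural progenitors, was read in 10 IPC cells and 1 aNSC cell, with medians of 75.3 and 0 CPM. Sox11, an SRY-box factor of immature neurons, was read in all 11 IPC cells (1.91 to 1537 CPM, median 185) and in 5 aNSC cells (0 to 122 CPM, median 0). Its relative Sox4 was read in all 11 IPC cells and 7 aNSC cells, with a difference of 4.45, and missed the size rule on the ratio of summed CPM, 3.84.

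Factors of later stages varied. Prox1, the homeodomain factor that specifies granule neurons, had 10 or more counts in 7 IPC cells and 0 aNSC cells, and its highest value, 730 CPM, was in IPC cell 1 of 2 months. Neurod1, a later proneural factor, was read in 2 IPC cells and 0 aNSC cells and so was not measured by the 35% limit.

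**Figure D2:**
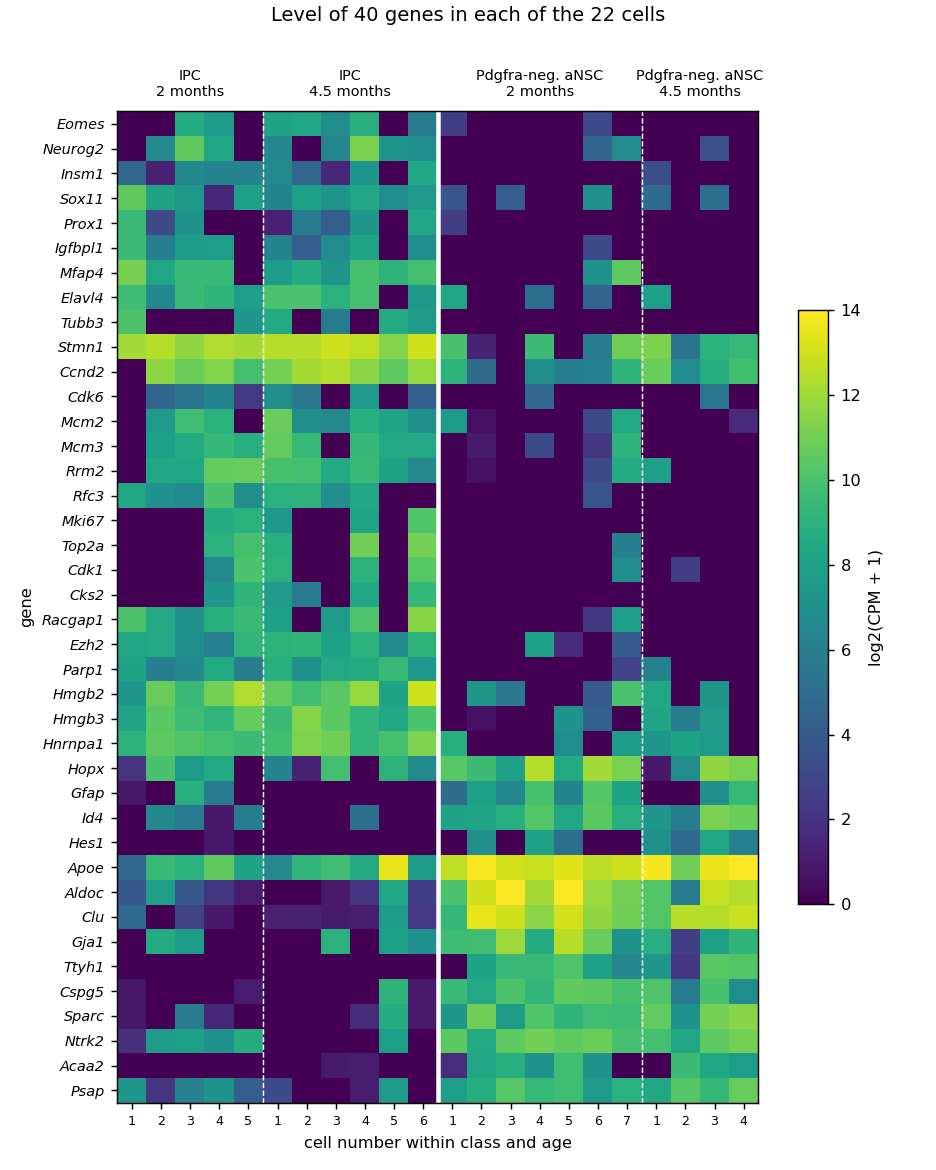
Level of 40 named genes, log2(CPM + 1) as colour, in each of the 11 IPC cells (left of the solid white line) and the 11 Pdgfra-negative aNSC cells (right), ordered by age and cell number. Progenitor, replication and chromatin genes fill the upper left, mitosis genes such as Mki67 fill only 5 IPC columns, and astroglial genes fill the lower right.

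Genes of the young neuronal cytoskeleton and surface formed the next group. Of 34 listed genes 26 were measured and 9 met the size rule, all higher in IPC cells, and the median difference was 2.21 (2.63 at 2 months, 1.79 at 4.5 months). Stmn1, a tubulin-binding protein that destabilises microtubules, was high in every IPC cell, from 2724 over 5256 to 8256 CPM, and ranged from 0 over 491 to 2377 CPM in aNSC cells. These ranges did not overlap. Stmn1 lay outside the size rule only because 9 aNSC cells also had reads. Igfbpl1, a secreted protein of the insulin-like growth factor binding family, was read in 9 IPC cells (0 to 734 CPM, median 107) and 1 aNSC cell (7.62 CPM). Mfap4, a microfibril-associated extracellular protein, was read in 10 IPC cells and 2 aNSC cells; its summed CPM was 678 and 148. The aNSC value came largely from cell 7 of 2 months, which held 1454 CPM. Elavl4, a neuronal RNA-binding protein, was read in 10 and 4 cells, with medians of 556 and 0 CPM. Tubb3, the neuronal beta-tubulin, was read in 6 IPC cells and 0 aNSC cells, at least 643-fold higher in summed CPM when the aNSC group is given a floor of 3 counts. Dcx, the doublecortin gene of migrating neuroblasts, was read in 3 IPC cells, 800 CPM in cell 1 of 2 months and 73.7 and 38.2 CPM in cells 4 and 5 of that age, and in 0 aNSC cells.

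Many genes of DNA replication (G1/S) met the size rule as higher in IPC cells, by amounts that differed widely from cell to cell. Of 72 genes in the list 63 were measured and 29 met the size rule, all higher, and 61 had a difference above 0; the median difference was 3.02 (2.91 at 2 months, 3.89 at 4.5 months). The mean level of the 63 genes ran from 1.35 over 4.86 to 8.22 in IPC cells and from 0.56 over 1.25 to 6.76 in aNSC cells, and only 3 IPC cells lay above every aNSC cell. The highest aNSC value was that of cell 7 of 2 months, and the next was 2.20. Rfc3, a subunit of the clamp loader that places PCNA on DNA, was read in 9 IPC cells and 1 aNSC cell. Its summed CPM was 280 in IPC cells (exact Poisson 95% interval 269.5 to 290) and 0.36 in aNSC cells (0.074 to 1.05), intervals that cover counting error only. Mcm3, a subunit of the replicative helicase, ranged from 0 over 377 to 1561 CPM in IPC cells and from 0 over 0 to 529 CPM in aNSC cells. Rrm2, the small subunit of ribonucleotide reductase, was read in 10 IPC and 4 aNSC cells, with medians of 380 and 0 CPM. Mcm2, another helicase subunit, was read in 9 IPC and 5 aNSC cells, with a difference of 4.82. Slbp, the protein that binds the stem-loop of replication-dependent histone mRNAs, was read in every IPC cell (253 to 2832 CPM) and in 6 aNSC cells (0 to 417 CPM).

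Genes of mitosis (G2/M) split the IPC group. Their median difference was 3.10 (2.35 at 2 months, 3.77 at 4.5 months), and 63 of 73 measured members, from 95 found in the table, met the size rule, all higher in IPC cells. Yet the mean level of the list was 5.03 and 8.82 in IPC cells 4 and 5 of 2 months and 4.96, 7.94 and 9.0 in IPC cells 1, 4 and 6 of 4.5 months, and lay between 0.47 and 1.26 in the other 6 IPC cells. The aNSC cells lay between 0.43 and 0.58, apart from cell 7 of 2 months at 3.31. Mki67, the Ki-67 antigen of cycling cells, had counts in exactly those 5 IPC cells (176 to 1162 CPM) and in 0 of 11 aNSC cells. Top2a, the DNA topoisomerase that untangles sister chromatids, was read in the same 5 IPC cells and at 65.5 CPM in aNSC cell 7 of 2 months. Cdk1, the mitotic kinase, was read in 5 IPC and 2 aNSC cells. Ccnb1, the mitotic cyclin B1, named after its values were seen, was read in 4 IPC cells and 0 aNSC cells, with 3407 and 4221 CPM in the IPC cells of the highest mitosis level at each age. The difference of means thus stands for a large gap in 5 of the 11 IPC cells and little or none in the rest. Taken as medians over cells, the mitosis list has a median difference of 0.00, whereas the replication list has 5.87.

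A few genes filed under mitosis were spread more widely. Racgap1, which acts with the central spindle in cytokinesis, was read in 9 IPC cells and 2 aNSC cells (medians 347 and 0 CPM). Smc2, a condensin subunit, was read in 9 and 3 cells.

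**Figure D3:**
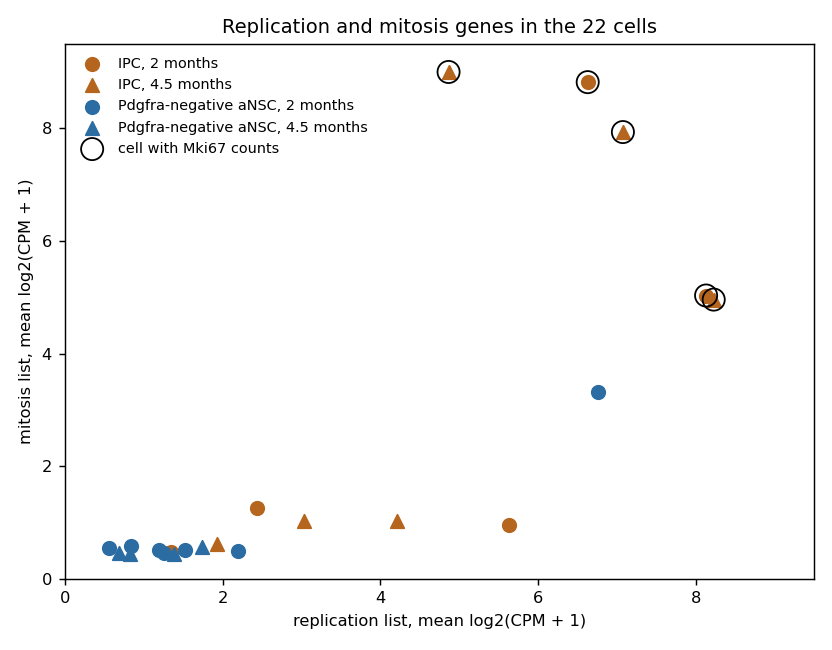
Mean log2(CPM + 1) of the replication list (horizontal axis) and the mitosis list (vertical axis) in each of the 22 cells, with circles for 2 months, triangles for 4.5 months and rings around cells with Mki67 counts. The 5 ringed cells are all IPC, with mitosis levels between 4.96 and 9.0. The aNSC cell at 6.76 and 3.31 is cell 7 of 2 months.

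Control of G1 entry was looked at separately. Of 25 listed cyclins, kinases and inhibitors 16 were measured and 4 met the size rule, all higher in IPC cells, with a median difference of 1.69 (2.16 and 1.46 by age; 2.99 when members had to be read in 60% of IPC or of aNSC cells). Ccnd2, the D-type cyclin of neural progenitors, ranged from 0 over 2629 to 5264 CPM in IPC cells and from 0 over 123 to 1815 CPM in aNSC cells; it was read in 10 cells of each group and so could not meet the rule. Its lowest IPC value, 0, was in cell 1 of 2 months. Cdk6, a kinase partner of D-type cyclins, was read in 8 IPC and 2 aNSC cells. Cdk4, the other such kinase, stood at 866 to 1698 CPM in IPC cells (median 1184) and at 0 to 895 CPM in aNSC cells (median 361). Only the top aNSC cell reached into the IPC range. Ccnd1 was read in 3 cells of each group. Cdkn1b, the inhibitor p27, was read in 5 IPC cells and 1 aNSC cell, and Cdkn1a, the inhibitor p21, in 3 and 0.

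Promoter sequence was examined for the cell cycle lists because their members varied together across cells. RefSeq windows of 300 bases (250 before to 50 after the annotated start, GRCm38.p6) were matched for 58 of the 73 mitosis genes, 47 of the 63 replication genes and 5648 of the 7313 measured genes. Each was searched on both strands for the cell cycle homology region (CHR, TTTGAA or TTCGAA), for the E2F site (TTTCCCGC or TTTGGCGC) and for the CCAAT box (CCAAT). None of these words contains another. A CHR was found in 39 of 58 mitosis windows (67.2%), in 11 of 47 replication windows (23.4%) and in 13.7% of all measured windows. An E2F site was found in 5 mitosis windows (8.62%), 13 replication windows (27.7%) and 3.65% of all measured windows. CCAAT was found in 70.7% of mitosis windows, 59.6% of replication windows and 40.5% of all. Neither CHR nor E2F site was found in the 27 windows of astroglial genes. These letter matches are descriptions of sequence and show no binding. Shown are 2 mitosis genes, a replication gene, Ezh2 and, for contrast, an astroglial gene, with matches to any of the 3 motifs in capitals. Their windows are Top2a at chr11:99024140-99024439, minus strand, with 4 CHR and 6 CCAAT matches; Mki67 at chr7:135716330-135716629, minus strand, with 2 CHR and 3 CCAAT; Mcm3 at chr1:20820263-20820562, minus strand, with 2 E2F and 3 CCAAT; Ezh2 at chr6:47594981-47595280, minus strand, with 1 E2F and 3 CCAAT; and Ttyh1 at chr7:4119280-4119579, plus strand, with 1 CCAAT.
Top2a: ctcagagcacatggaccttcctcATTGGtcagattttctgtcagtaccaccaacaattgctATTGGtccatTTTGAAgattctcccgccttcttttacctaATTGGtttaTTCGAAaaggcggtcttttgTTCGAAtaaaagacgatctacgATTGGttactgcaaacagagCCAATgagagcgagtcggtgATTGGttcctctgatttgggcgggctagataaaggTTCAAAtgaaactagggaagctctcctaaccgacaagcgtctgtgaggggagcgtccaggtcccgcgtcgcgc
Mki67: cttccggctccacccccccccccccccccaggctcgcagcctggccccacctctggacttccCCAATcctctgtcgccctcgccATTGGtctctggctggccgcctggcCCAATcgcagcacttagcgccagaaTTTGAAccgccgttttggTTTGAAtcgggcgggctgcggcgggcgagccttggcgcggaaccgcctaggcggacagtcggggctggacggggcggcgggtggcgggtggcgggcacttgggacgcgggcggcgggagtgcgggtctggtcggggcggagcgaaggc
Mcm3: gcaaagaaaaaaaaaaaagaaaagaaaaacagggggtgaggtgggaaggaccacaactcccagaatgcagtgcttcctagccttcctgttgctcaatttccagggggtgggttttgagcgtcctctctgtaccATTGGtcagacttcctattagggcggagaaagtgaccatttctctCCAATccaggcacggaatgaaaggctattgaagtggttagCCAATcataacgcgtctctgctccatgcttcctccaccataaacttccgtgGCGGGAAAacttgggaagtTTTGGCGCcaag
Ezh2: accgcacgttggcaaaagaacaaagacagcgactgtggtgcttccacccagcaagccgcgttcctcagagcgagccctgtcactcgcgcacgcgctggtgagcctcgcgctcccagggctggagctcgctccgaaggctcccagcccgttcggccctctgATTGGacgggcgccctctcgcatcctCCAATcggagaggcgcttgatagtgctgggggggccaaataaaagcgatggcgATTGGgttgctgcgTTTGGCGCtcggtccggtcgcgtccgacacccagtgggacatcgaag
Ttyh1: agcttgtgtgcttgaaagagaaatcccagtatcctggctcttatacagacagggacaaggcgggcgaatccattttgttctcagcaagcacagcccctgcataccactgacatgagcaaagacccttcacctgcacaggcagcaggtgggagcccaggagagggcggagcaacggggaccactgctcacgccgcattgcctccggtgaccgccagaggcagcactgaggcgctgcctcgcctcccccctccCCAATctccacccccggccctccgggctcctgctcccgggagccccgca

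**Figure D4:**
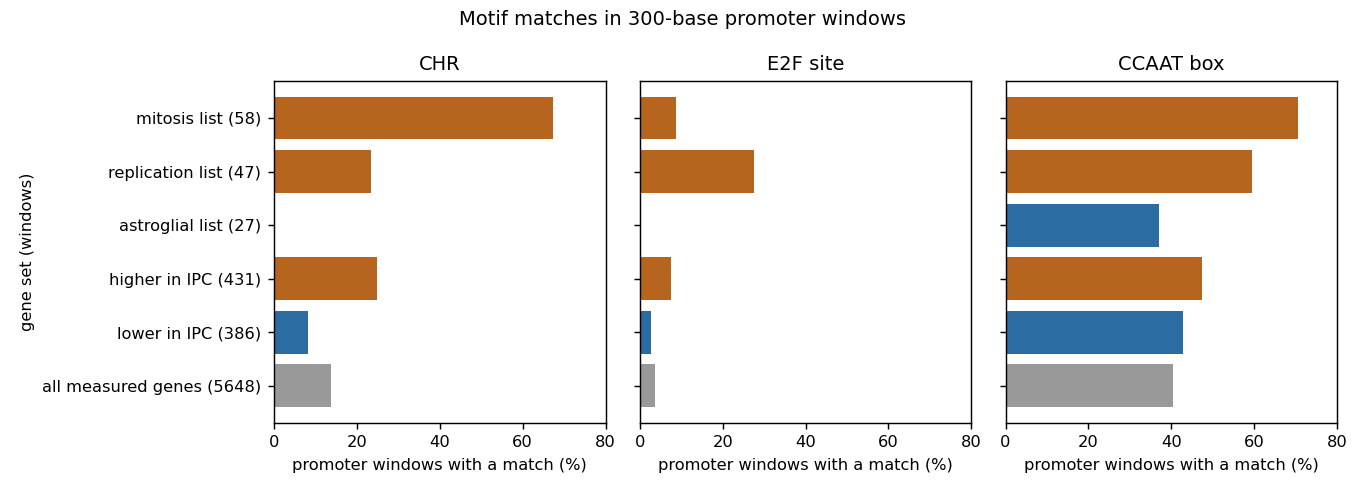
Share of 300-base promoter windows with at least 1 match to the CHR, E2F or CCAAT motif (horizontal axes, percent), for 3 gene lists, for genes that met the size rule in each direction and for all measured genes, with the number of windows in parentheses. The CHR bar of the mitosis list (67.2%) and the E2F bar of the replication list (27.7%) stand out from those of all measured genes (13.7% and 3.65%).

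Some chromatin genes were read in every IPC cell and in few aNSC cells. Ezh2, the histone H3 lysine methyltransferase of Polycomb complex PRC2 (chromosome 6, 47530139 to 47595341, minus strand, mm10), is 1 of the 5 markers given with the comparison. It was among the 12 higher genes with the largest differences, although the groups overlapped. It ranged from 70.8 over 351 to 601 CPM in IPC cells and from 0 over 0 to 262 CPM in aNSC cells. All 11 IPC cells had reads, whether or not they had Mki67, against 3 aNSC cells; the difference was 6.94, with 5.85 at 2 months and 8.50 at 4.5 months. Its close relative Ezh1, named after its value was seen, was read in 5 cells of each group with a difference of -0.73. Among Polycomb and chromatin enzymes 9 of 38 measured members, from 46 listed, met the rule, all higher (median difference 1.3, or 2.73 with the 60% limit), and 11 had a difference below 0. The mean level of this list was above every aNSC cell in 8 of 11 IPC cells. Those that met the rule included the H3K9 methyltransferase Suv39h2, read in 7 IPC and 0 aNSC cells, and Actl6a, a subunit of chromatin remodelling complexes, read in 9 and 4. High-mobility-group and replication-linked chromatin genes gave 9 of 33 (34 listed), all higher, with a median of 2.19 (1.96 and 2.73 by age). Markers given with the comparison count in these lists: Hmgb2 here, Ezh2 among Polycomb and chromatin enzymes, and Mfap4 among cytoskeleton and surface genes. List values without them were not computed. Hmgb2, a DNA-bending protein of proliferating cells, ranged from 161 over 1571 to 7914 CPM in IPC cells and from 0 over 15.2 to 1031 CPM in aNSC cells. Hmgb3, its relative on the X chromosome, ranged from 283 over 818 to 2741 CPM in IPC cells and from 0 over 0.53 to 286 CPM in aNSC cells. For Hmgb2 4 aNSC cells reached above the lowest IPC cell, and for Hmgb3 1 did. Hmgb1, another relative named after its value was seen, was read in every cell of both groups with a difference of 2.05. Parp1, which senses DNA breaks, was read in 11 IPC cells (60.5 to 688 CPM) and 2 aNSC cells (up to 76.7 CPM), with a difference of 6.88.

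Few splicing and protein synthesis genes met the size rule. Of 51 splicing and hnRNP genes 49 had a difference above 0 and 3 met the size rule, with a median of 1.79. Hnrnpa1, which regulates splice site choice, ranged from 513 over 956 to 2486 CPM in IPC cells and from 0 over 110 to 435 CPM in aNSC cells, without overlap. Ptbp2, the neural polypyrimidine tract binding protein, was read in 10 IPC and 5 aNSC cells, with a difference of 5.03. Cytosolic ribosomal proteins had a median difference of 1.52, with 77 of 81 measured genes above 0, but only Rps27 met the size rule and it was read in just 4 IPC cells. Translation factors had a smaller median of 0.67 (1.34 at 2 months, 0.33 at 4.5 months) and 4 of 54 genes that met the rule, led by Eif2b1, a subunit of the nucleotide exchange factor of eIF2, read in 10 and 3 cells. These shares, 5.88% for splicing, 1.23% for ribosomal proteins and 7.41% for translation factors, are at or under the background of 7.58%. Genes read in most cells of both groups can seldom meet the rule. The median IPC and aNSC cell had reads of 77 and 71 of the 81 ribosomal genes and of 47 and 41 of the 51 splicing genes. The mean level lay above every aNSC cell in 7 IPC cells for ribosomal proteins and in 9 for splicing. Proteasome subunits (35 measured, median 0.70) and chaperonin and heat shock genes (26 measured, median 1.13) had no member that met the rule.

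**Figure D5:**
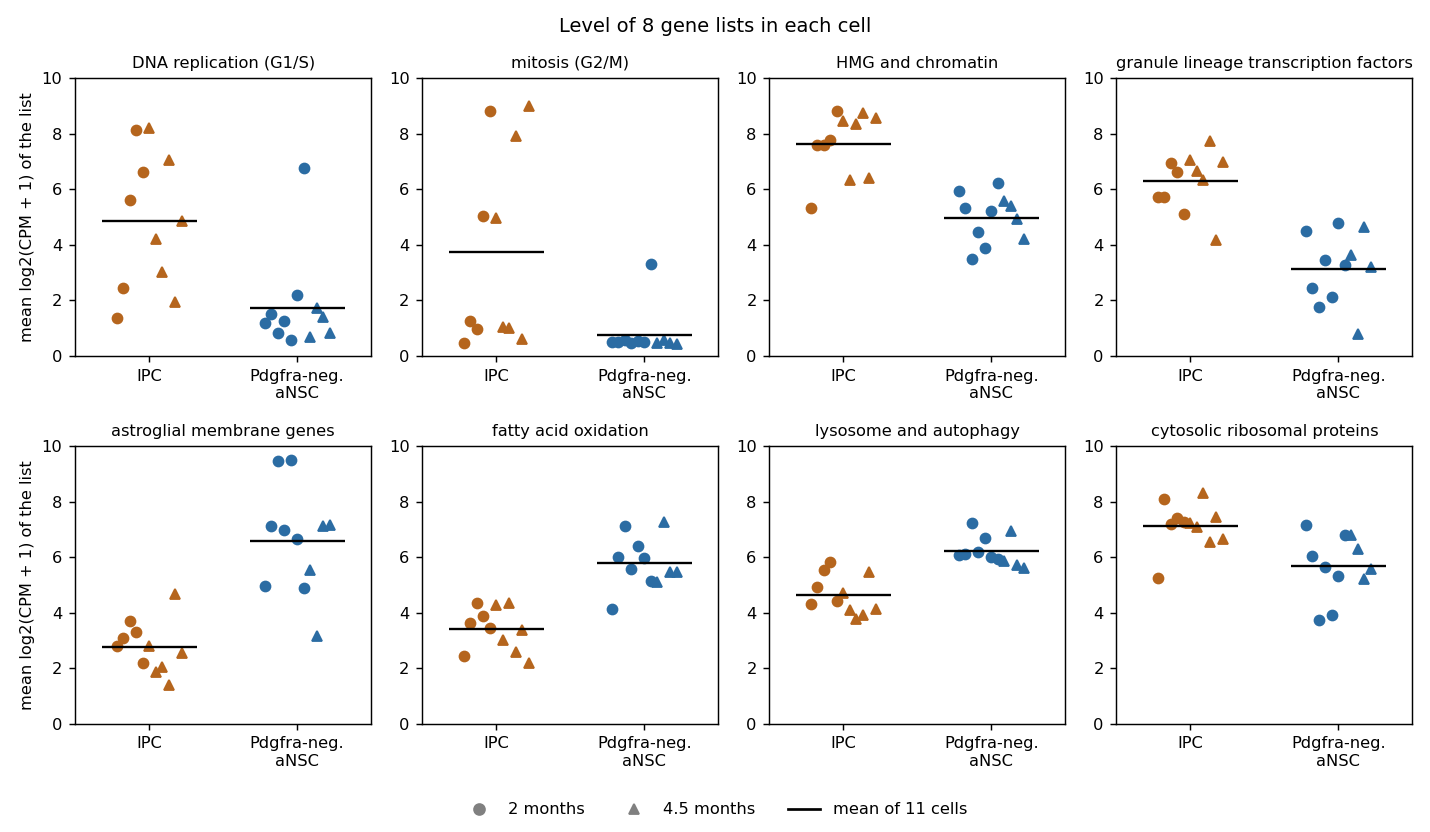
Mean log2(CPM + 1) of the measured members of 8 gene lists in each cell, IPC left and Pdgfra-negative aNSC right in each panel, circles for 2 months, triangles for 4.5 months, bars for the mean of 11 cells. Replication and mitosis levels spread widely among IPC cells, whereas chromatin levels do so less, and fatty acid oxidation and lysosome levels lie lower in most IPC cells than in any aNSC cell.

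Stem cell identity genes were lower on the whole, but not evenly. Of 35 listed genes 30 were measured, of which 5 met the size rule as lower and 1 as higher, with a median difference of -1.83 (-1.32 and -1.87 by age; -0.48 from medians over cells, -0.62 against all aNSC cells). Id4, an inhibitor of basic helix-loop-helix factors that holds stem cells in quiescence, ranged from 0 over 0 to 93.2 CPM in IPC cells and from 58.8 over 452 to 2318 CPM in aNSC cells. Id3, a relative, was read in 2 IPC cells at up to 3.52 CPM and in 6 aNSC cells at up to 1179 CPM. Gfap, the astroglial intermediate filament, was read in 3 and 9 cells. Hopx, a homeodomain protein of quiescent stem cells, was read in 9 IPC cells, with a median of 102 CPM against 1307 CPM in aNSC cells. Sox9 and Sox2, SRY-box factors of stem cells, differed by -2.25 and -1.72 and had reads in 10 and 7 IPC cells. Against all 18 aNSC cells the Sox9 difference had the other sign, 0.96. Vim and Fabp7, radial glial genes, differed by 1.16 and -0.82, and their ranges overlapped widely. For Vim the sign turned at 4.5 months (-0.24) and in summed counts (-0.092). Tfap2c, a transcription factor named after its value was seen, was the member that was higher, read in 5 IPC cells and 1 aNSC cell.

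Notch signalling genes were mixed, with 0 higher and 3 lower of 20 measured (33 listed) and a median difference of -0.35, which was 0.58 when members had to be read in 60% of IPC or of aNSC cells. Hes1, a repressor induced by Notch, was read in 1 IPC cell (0.96 CPM) and 7 aNSC cells (up to 320 CPM). Lfng, a glycosyltransferase that modifies Notch receptors, was read in 1 and 10 cells, and the receptor Notch2 in 2 and 6 cells. Notch1 (difference 0.28) and the ligand Dll1 (0.43) were read in similar numbers of cells, 6 and 5 for Notch1 and 4 and 3 for Dll1. Hes5, another Notch target, differed by 0.35 at 2 months and by -4.33 at 4.5 months, so its pooled difference of -1.99 rested on the older cells.

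Several receptors for growth factors and cytokines were lower in IPC cells. Of 40 listed genes 27 were measured, of which 11 met the size rule as lower and 1 (Fzd3, named after its value was seen) as higher, with a median difference of -2.11 (-2.25 and -1.99 by age; 0.00 from medians over cells, -3.38 with the 60% limit). Ntrk2, the receptor for BDNF, ranged from 0 over 2.64 to 412 CPM in IPC cells and from 301 over 1486 to 2164 CPM in aNSC cells. S1pr1, a sphingosine-1-phosphate receptor, had medians of 1.76 and 459 CPM, and Bmpr1b, a BMP receptor, was read in 0 IPC and 5 aNSC cells. Egfr, the receptor of activated stem cells, was not among them: it was read in 3 IPC and 5 aNSC cells with summed CPM of 112 and 123.

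Astroglial membrane genes had the lowest median difference of the 25 lists. Of 44 listed junction, channel and transporter genes 34 were measured and 17 met the size rule, all lower in IPC cells, and all 34 had a difference below 0; the median was -3.33 (-3.80 at 2 months, -2.90 at 4.5 months). Their mean level ran from 1.41 over 2.79 to 4.69 in IPC cells and from 3.18 over 7.0 to 9.505 in aNSC cells. The astrocyte markers moved with it: the aNSC cells with the highest levels, 9.46 and 9.505, were cells 3 and 5 of 2 months, which had 9 of 9. The part of these markers in the result was not tested. Clu, a secreted chaperone (chromosome 14, 65968483 to 65981547, plus strand, mm10), ranged from 0 over 1.42 to 216 CPM in IPC cells and from 629 over 5598 to 11478 CPM in aNSC cells, without overlap, a 212-fold lower summed CPM. Ttyh1, a tweety family membrane protein, had 0 counts in all 11 IPC cells and was read in 10 aNSC cells with a median of 281 CPM, at least 1572-fold lower in IPC cells against a floor of 3 counts over the group. Mlc1, a membrane protein of astroglial junctions, had medians of 0 and 1129 CPM, and Gja1, the gap junction protein connexin 43, of 0 and 568.01 CPM. Slc1a3, the glutamate transporter GLAST, was read in every cell of both groups, with medians of 1077 and 6858 CPM, so IPC cells had reads of it at a lower level. Apoe, the lipid carrier, likewise had reads in every cell, with medians of 489 and 8416 CPM; its highest IPC value, 11232 CPM, was in cell 5 of 4.5 months, which also had the highest astroglial list level of the IPC cells, 4.69.

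Extracellular matrix and proteoglycan genes followed the astroglial list: 11 of 24 measured members, from 49 listed, met the rule, all lower, with a median of -2.39 (-2.64 and -2.46 by age). Over all listed genes, with no filter, it was -1.04. Cspg5, a brain chondroitin sulphate proteoglycan, ranged from 0 over 0 to 546 CPM in IPC cells and from 52.6 over 989 to 1530 CPM in aNSC cells. Only 1 IPC cell had 10 or more counts, against all 11 aNSC cells. Sparc, a matricellular protein, had medians of 0.88 and 846 CPM, and Itih3, a hyaluronan-associated protein, was read in 2 and 9 cells. Outside these lists, the 12 lower genes with the largest differences included Wls, the carrier that Wnt ligands need for secretion (3 IPC cells, at most 1.11 CPM, against 10 aNSC cells with a median of 392 CPM), and Chpt1, an enzyme of phosphatidylcholine synthesis (0 IPC cells and 9 aNSC cells, at least 832-fold lower). Others were Gpr37l1, an orphan receptor (difference -6.95), Pla2g7, a phospholipase that degrades platelet-activating factor (-6.61), Anxa5, a phospholipid-binding annexin (-6.51), and Htra1, a secreted serine protease (-6.45). Ctdspl2, a phosphatase-like protein, was among the 12 largest in the other direction, with a difference of 5.78.

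Energy and lipid metabolism differed by pathway. Fatty acid oxidation genes had 11 of 27 measured members, from 31 listed, that met the size rule, all lower in IPC cells, with a median of -2.16 (-2.30 and -2.63 by age). The mean list level ran from 2.20 over 3.45 to 4.37 in IPC cells and from 4.13 over 5.59 to 7.28 in aNSC cells. Acaa2, a mitochondrial thiolase, was read in 2 IPC cells at no more than 1.11 CPM and in 9 aNSC cells with a median of 233 CPM. Acsbg1, an acyl-CoA synthetase, had medians of 0 and 947 CPM, and Acadl, the long-chain acyl-CoA dehydrogenase, was read in 3 and 9 cells. Glycolysis genes gave 6 of 20, all lower, with a median of -1.44. The aldolases Aldoc and Aldoa differed most, with medians of 3.83 and 4455 CPM for Aldoc and of 89.9 and 1023 CPM for Aldoa, whereas Gapdh, named after its value was seen, differed by 0.22. Nuclear genes of oxidative phosphorylation were under the background share: 1 was higher and 1 lower of 79 (1.27% each, against 7.58% and 7%), with a median of -0.23 (-0.31 at 2 months, 0.10 at 4.5 months). Cholesterol and fatty acid synthesis gave 2 higher and 2 lower of 29 and a median of -1.71, but -0.64 and -0.53 within the ages, both nearer to 0 than the pooled value, and 0.00 from medians over cells. Lysosome and autophagy genes gave 8 lower and 0 higher of 52, with a median of -1.37 (-1.22 and -1.24 by age). Psap, the precursor of saposins, ranged from 0 over 8.49 to 209 CPM in IPC cells and from 191 over 650.5 to 1695 CPM in aNSC cells. Only IPC cell 5 of 4.5 months reached the aNSC range. Gm2a, the GM2 ganglioside activator, was read in 5 IPC cells at up to 8.60 CPM and in 10 aNSC cells with a median of 377 CPM. In 10 of 11 IPC cells the mean lysosome level was below that of every aNSC cell.

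Nucleotide and one-carbon synthesis genes gave 4 of 28, all higher, with a median of 1.3 (0.44 from medians over cells), among them Gmps, which makes GMP (read in 10 IPC and 3 aNSC cells), and the mitochondrial serine hydroxymethyltransferase Shmt2 (9 and 4 cells). The p53 and DNA damage list gave 4 of 19, all higher, with a median of 1.57 (also 0.44 from medians over cells). Those that met the rule included Chek1 and Nbn, which act in replication checkpoints and break repair, beside Parp1. Chek1 differed by 0.50 at 2 months and by 6.71 at 4.5 months, so its pooled difference of 3.68 rested largely on the older cells. Immediate early genes, which tissue dissociation can induce, were mixed, 3 higher (Ier2, Ier5 and Dnajb1) and 2 lower of 18, with a median of 0.61.

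The 11 IPC cells were not alike. IPC cell 1 of 2 months had the highest neuroblast level (7.45; the other IPC cells had 3.51 to 5.83), 1083 CPM of Tubb3 and the lowest replication level of the IPC cells (1.35), with no counts of Eomes, Neurog2 or Mki67. The 5 cells with Mki67 had replication levels of 4.86 to 8.22. The other 5 cells, without Mki67 or a neuroblast profile, had replication levels of 1.93 to 5.63, and 3 of them had Eomes. All 11 nonetheless shared reads of Ezh2, Parp1, Hmgb2, Hmgb3, Hnrnpa1, Stmn1, Slbp, Sox11 and Sox4. Among the aNSC cells, cell 7 of 2 months resembled IPC cells in replication genes and Mfap4 but kept 2102 CPM of Clu and 2294 CPM of Hopx, within the aNSC range of both.

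The qNSC cells give a scale for the gap. Median list levels in IPC, Pdgfra-negative aNSC and qNSC cells were 4.86, 1.25 and 0.71 for replication, 7.79, 5.23 and 3.63 for chromatin, and 7.23, 5.65 and 3.92 for ribosomal proteins. For the astroglial list they were 2.79, 7.0 and 7.97, for fatty acid oxidation 3.45, 5.59 and 5.38, and for the lysosome 4.43, 6.10 and 5.93. By these medians the aNSC cells lay between the other classes for chromatin and ribosomal genes and near the qNSC cells for fatty acid oxidation, lysosome and replication genes. This order was not tested. The levels rest on measured members only, and qNSC cells took no part in that filter, so genes read mainly in qNSC cells can be missing. It kept 33 of 34 chromatin, 81 of 84 ribosomal and 34 of 44 astroglial genes.

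Several named values carry a limit of assignment. The kit does not record strand, and 17 of the 106 named genes share exonic bases with another annotated gene, among them Ctdspl2, Pla2g7, Parp1, Mfap4, Ttyh1, Id4, Chpt1, Ccnd2, Cdk4, Actl6a, Suv39h2, Aldoa and Shmt2. Reads of ribosomal proteins, HMG genes, tubulins and Hnrnpa1 can also be split among near-identical copies.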

How the data were processed

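The authors deposited estimated counts per gene and cell and, in a second table, TPM, a length-scaled abundance; the class of each cell is in a deposited annotation, with no account of how it was assigned in the sources used here. STAR, RSEM and the mm10 build are named in the submitters' processing notes, without versions. Of count values above 0, 4.44% were not whole (tolerance 1e-06).

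Counts were scaled to CPM and taken as log2(CPM + 1) with Python 3.11.15, numpy 2.4.6, pandas 2.3.3 and scipy 1.17.1. A read means a count of at least 0.5. For each gene the mean of the cells, how many cells had a read and the CPM of summed counts were computed, with exact 95% intervals. Reads carry no molecular identifiers, so these cover counting error only. The size rule is given above. The procedure was also run on simulated counts, in which changed genes differed in level and in the share of cells, as the rule asks. Each gene was drawn independently there, whereas cell cycle genes of the real cells varied together. That run therefore does not show how often real genes meet the rule without a difference between the classes. The class labels, members and gene lists were chosen with earlier results of these data known.

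The genes to be named were first, in each direction, the 12 largest differences among genes that met the size rule. Predicted genes, pseudogenes, Xist, Tsix and Y-linked genes were left out of these. Added were the 5 markers given with the comparison, which selected no cell, and up to 3 genes that met the rule per list. A fixed set of stem cell, cell cycle and lineage genes made 106 in all. Others are said to be chosen after their values were seen. Some of these genes are not described here. Alternatives covered the pseudocount, the deposited TPM, size factors, thinning, the filter, each age, medians, summed counts, other cell sets, stricter and looser rules and leaving out each cell. There were 0 pairs of cells with identical counts.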

Additional observations from a re-analysis of the deposited data

Results flagged for a closer look

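Of 108 sets of 4 to 7 cells of the same class and age that were looked at (total counts, genes read and list levels), 7 had a cell far from the others by Dixon's criterion, which chance gives in about 1 in 20 sets. IPC cell 1 of 2 months was lowest in its set for translation factors (mean log2(CPM + 1) of 3.75, next cell 6.30) and for nucleotide and one-carbon synthesis (2.78, next 5.08); this is the cell with 8 of 9 neuroblast markers. The Pdgfra-negative aNSC cell 7 of 2 months was highest in its set for DNA replication (6.76, next 2.20), mitosis (3.31, next 0.58) and nucleotide synthesis (5.14, next 3.68), and it is the aNSC cell with 5 of 10 progenitor markers. The Pdgfra-negative aNSC cell 2 of 2 months had 1896075 total counts, against 824430 in the next cell, and is the cell with endothelial and mural markers. The Pdgfra-negative aNSC cell 2 of 4.5 months had a fatty acid oxidation level of 7.28, against 5.46 in the next, and is the cell with 3 of 6 ependymal markers. Whether these markers are related to those levels was not tested. No named gene had ages that moved in opposite directions without overlap.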

How the results depend on the processing

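No setting turned a list median of at least 1 to the other sign, nor any of the 81 named genes that met the size rule. There were 17 settings per list and 22 that each left out 1 cell. Among the 17, the setting of aNSC cells with 0 counts of Pdgfra held the same cells as the main one. Those without the aNSC cell with progenitor markers or the IPC cell with neuroblast markers each repeat a setting that left out 1 cell. The signs of the other genes that met the rule were not looked at. Because the rule asks for the same sign within each age, the settings of a single age could not turn a gene that met it. Differences of at least 1 in genes described here that did not meet the rule turned for Sox9 (0.96 against all aNSC cells), Hes5 (0.35 at 2 months) and Vim (-0.24 at 4.5 months, -0.092 in summed counts). The counts of genes depended on the settings more than the lists did. Genes higher and lower by the size rule, 554 and 512, were 212 and 177 with a pseudocount of 10, 263 and 248 with a filter at 60% of cells, 876 and 977 at 4.5 months alone, 298 and 259 from medians over cells, 1696 and 1592 under the looser rule and 111 and 128 with a difference of at least 4; genes higher were 1095 at 2 months alone and 346 against all 18 aNSC cells. Higher genes made up 52.0% of these calls, 61.9% at 2 months alone, 58.3% without the cells with markers of another type, 43.9% with size factors and 41.8% against all aNSC cells; these settings also moved the median of all measured genes, to 0.65, 0.56, 0.15 and 0.24. Leaving out each cell gave 444 to 620 higher and 417 to 562 lower genes.

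Genes without overlap, 2 and 2, were 50 and 35 at 2 months, 63 and 48 at 4.5 months, 16 and 12 without the 4 IPC cells with fewer than 10 counts of Eomes, and 5 and 7 without the 5 cells under 500000 counts. Those higher were 5 after thinning, 4 without the aNSC cell with progenitor markers and 5 without the IPC cell with neuroblast markers. Those lower were 4 with size factors, 13 without the cells with markers of another type and 1 against all aNSC cells. Leaving out each cell gave 2 to 6 higher and 2 to 12 lower, the 12 without aNSC cell 2 of 4.5 months. Fewer cells make such counts larger by construction.

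Among list medians, granule lineage factors had 2.23 with a pseudocount of 10 and 1.47 with no filter, and matrix genes -1.04 with no filter. With the 60% filter, G1 cyclins had 2.99, Polycomb and chromatin enzymes 2.73, Notch signalling 0.58 (a change of sign) and growth factor receptors -3.38. From medians over cells, stem cell identity had -0.48, replication 5.87, mitosis 0.00, cholesterol synthesis 0.00, growth factor receptors 0.00, p53 0.44 and nucleotide synthesis 0.44. Notch signalling had -1.40 without the IPC cells low in Eomes, and stem cell identity -0.62 against all aNSC cells. The cause was not tested. The other 959 of 975 list values moved by less than the spread between cells. These include the 22 settings that each left out 1 cell, which can hardly move a median by that much. The count is therefore no measure of stability.

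Settings that left out shallow cells, the aNSC cell with progenitor markers or the IPC cell with neuroblast markers, and the rule without the condition on the share of cells, were chosen after seeing the data. No paired analysis was possible because each cell is its own sample, the numbers in the titles only name cells and no test was run. With 1 sample per group and no animal named, the spread between animals is unknown; counts of 0 in cells of 252278 to 1896075 counts do not show absence.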
